A study of Mus musculus with 15 samples.

Results

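The 5 standard-housed mice of a housing study supplied the baseline DNA methylome of the dentate gyrus described here, out of 15 mice in 3 groups of 5. The assay was reduced representation bisulfite sequencing (RRBS), which cuts DNA at a short motif, keeps the CpG-rich fragments and reads methylated cytosines as those that bisulfite left unconverted. All 15 mice were female C57BL/6JRj animals aged 7.5 months, with no genetic change or drug named in the labels. The standard group spent 6 months in standard cages. The enriched group spent 6 months in an enriched environment, and the withdrawal group spent 3 months in enrichment and then 3 months in standard cages. Tissue was micro-dissected, so each value averages over granule neurons, other neurons, glia and vessel cells, and a change in the share of a cell type could not be told apart from a change within it.

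A cytosine was kept when at least 4 of the 5 standard mice had a value. This kept 342606 of 455836 CpG rows (75.2%) and 1873104 of 2462278 non-CpG rows (76.1%), where a row is 1 cytosine on 1 strand. The 342465 CpG rows on chromosomes 1 to 19 and X were used for levels. Standard mouse 1 had values at 262932 of the kept CpG rows and the other 4 mice at 318175 to 328742. The values are percentages without read counts, so the depth behind each is unknown.

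Cytosine methylation in mammals sits mostly at CpG dinucleotides and is copied to the new strand after replication. Most of the genome is methylated, while CpG islands, the CpG-rich stretches at the starts of many genes, are kept free of it. Lasting methylation of a start goes with silencing, as at genes used only in germ cells, at 1 parental copy of imprinted genes and on the inactive X chromosome of females. Neurons also carry methylation outside CpG, chiefly at CA.

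The sequences of 7 starts show the kinds of start found. Each is the stretch just upstream of the gene's 5′ end, read 5′ to 3′ on the gene's strand, from RefSeq tables of build GRCm38.p6 (mm10), and capitals mark CpG dinucleotides. Neurog3, a proneural transcription factor, stands for unmethylated starts. Slc25a31, a sperm mitochondrial ADP/ATP carrier, and Tuba3b, a testis alpha-tubulin, stand for methylated germ-cell starts. Rpl39l, a testis form of a ribosomal protein, has a CpG-rich start that was methylated. Mcts2 is an imprinted retrogene, Ogt (O-GlcNAc transferase) is an X gene silenced on the inactive copy, and Kdm5c, a histone demethylase, escapes that silencing.
Neurog3 (chr10:62132840-62133089, plus strand): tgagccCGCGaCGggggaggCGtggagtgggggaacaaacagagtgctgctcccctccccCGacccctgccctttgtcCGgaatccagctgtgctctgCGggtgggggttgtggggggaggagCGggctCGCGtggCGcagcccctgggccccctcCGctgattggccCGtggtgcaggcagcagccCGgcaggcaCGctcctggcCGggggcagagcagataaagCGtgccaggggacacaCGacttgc
Slc25a31 (chr3:40708621-40708870, plus strand): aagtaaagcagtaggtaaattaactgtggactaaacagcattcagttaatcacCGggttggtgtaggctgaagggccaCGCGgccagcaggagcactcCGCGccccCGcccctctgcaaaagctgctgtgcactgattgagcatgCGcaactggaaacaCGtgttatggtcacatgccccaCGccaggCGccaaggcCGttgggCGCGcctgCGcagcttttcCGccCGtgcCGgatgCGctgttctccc
Tuba3b (chr6:145615713-145615962, plus strand): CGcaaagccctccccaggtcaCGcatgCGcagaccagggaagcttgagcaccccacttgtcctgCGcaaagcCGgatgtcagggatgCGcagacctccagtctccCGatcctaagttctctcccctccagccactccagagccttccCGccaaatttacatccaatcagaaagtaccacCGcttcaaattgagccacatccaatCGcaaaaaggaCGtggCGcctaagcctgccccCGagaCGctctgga
Rpl39l (chr16:10169978-10170196, plus strand): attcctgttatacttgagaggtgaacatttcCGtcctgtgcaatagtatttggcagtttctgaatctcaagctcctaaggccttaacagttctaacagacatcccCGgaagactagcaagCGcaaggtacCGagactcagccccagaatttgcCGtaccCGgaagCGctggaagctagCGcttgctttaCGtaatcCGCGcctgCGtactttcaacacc
Mcts2 (chr2:152686898-152687147, plus strand): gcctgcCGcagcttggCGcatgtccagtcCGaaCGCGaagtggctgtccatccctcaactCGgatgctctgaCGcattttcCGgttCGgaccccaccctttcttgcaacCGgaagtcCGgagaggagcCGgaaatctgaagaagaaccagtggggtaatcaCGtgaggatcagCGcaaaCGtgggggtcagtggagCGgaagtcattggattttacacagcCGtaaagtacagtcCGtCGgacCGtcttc
Ogt (chrX:101639801-101640010, plus strand): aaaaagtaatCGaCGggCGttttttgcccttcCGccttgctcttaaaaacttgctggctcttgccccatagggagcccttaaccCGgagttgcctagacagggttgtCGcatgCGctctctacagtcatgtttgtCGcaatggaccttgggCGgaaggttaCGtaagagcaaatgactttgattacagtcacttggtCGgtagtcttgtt
Kdm5c (chrX:152232977-152233197, plus strand): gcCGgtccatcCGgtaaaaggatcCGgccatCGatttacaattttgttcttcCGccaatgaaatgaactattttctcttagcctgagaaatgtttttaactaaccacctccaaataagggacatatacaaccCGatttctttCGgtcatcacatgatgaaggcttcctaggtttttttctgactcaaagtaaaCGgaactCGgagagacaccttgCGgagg

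The upstream stretches shown held 10 to 20 CpGs, so CpG number alone did not separate them. Over the 19 measured sites in the Neurog3 stretch, methylation averaged 1.35% ± 1.57 (SD, n = 5 mice). The 12 sites of the Rpl39l stretch averaged 93.6% ± 3.59, the 4 of Tuba3b 95.9% ± 4.17 (4 mice), and both sites of Slc25a31 were at 100% in every mouse with a value. The 11 sites of the Ogt stretch averaged 26.9% ± 11.2 and the 11 of Mcts2 43.6% ± 14.1. No site of the Kdm5c stretch itself was measured, and its values below come from sites on either side.

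Methylation differed with position relative to genes in every mouse. A gene start was any site within 1 kb of the 5′ end of a protein-coding gene whose direction the promoter table lists. Mice 1 to 5 averaged 6.41%, 5.36%, 5.10%, 5.40% and 5.24% over the 76756 sites at gene starts, or 5.50% ± 0.521 (SD, n = 5). Mouse 1 was the highest and the other 4 lay close together. Gene 3′ ends (5410 sites) averaged 41.2% ± 2.40, gene bodies (117060 sites) 46.1% ± 2.45, and the space between genes (123038 sites) 62.0% ± 1.09. Ends of genes with no listed direction, which mix starts and 3′ ends, averaged 8.50% ± 0.853 over 20201 sites. The ranges of starts, 3′ ends and intergenic sites did not overlap between mice, whereas 3′ ends (39.4% to 45.3%) and bodies (44.3% to 50.2%) overlapped. With flanks of 500 bases in place of 1 kb the order of these 2 turned round, with 3′ ends at 41.95% and bodies at 39.7%.

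**Figure D1:**
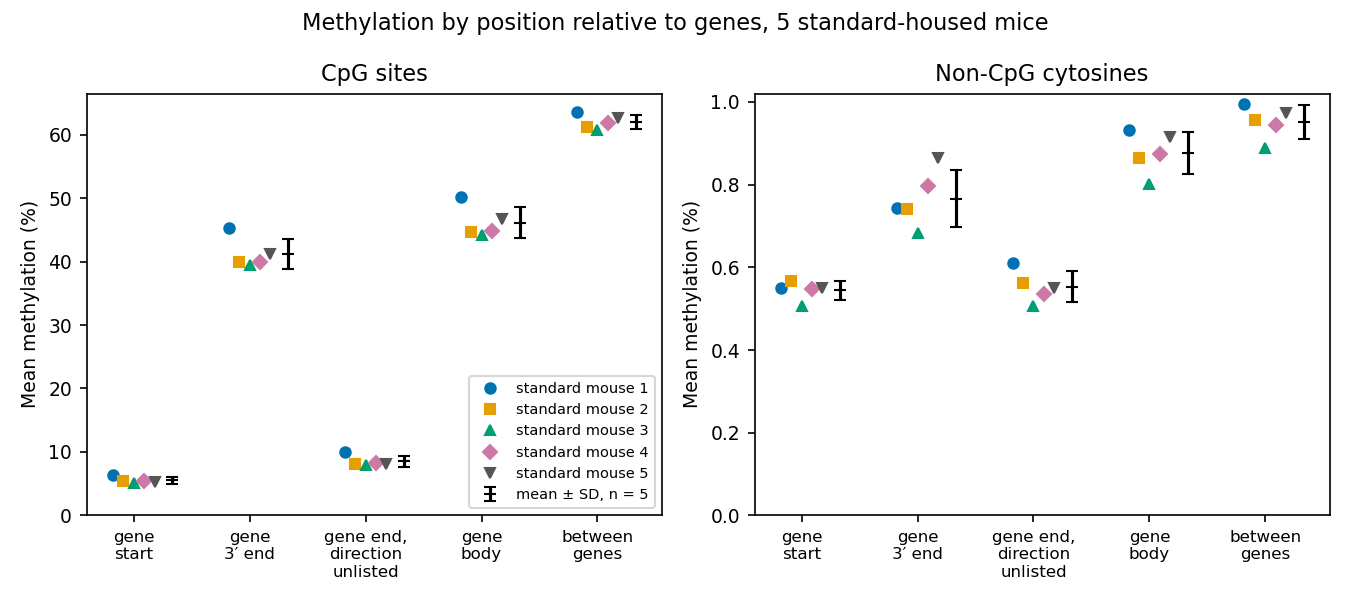
Mean methylation (%) of CpG sites (left) and of non-CpG cytosines (right) in 5 positions relative to protein-coding genes. Each symbol is 1 standard mouse and the bar is the mean ± SD of 5 mice: CpG starts lie at 5.10% to 6.41%, and sites between genes at 60.8% to 63.6%.

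Within mice, starts were lower than 3′ ends by 35.7 percentage points (start 5.50%, 3′ end 41.2%) and bodies lower than intergenic sites by 15.9 points, each in 5 of 5 mice. With 5 mice an exact sign-flip permutation test cannot go below p = 0.0625 (two-sided), the value that all 6 planned contrasts gave. The same contrasts in the other 10 mice, which the choice of sites did not use, were -35.2 and -16.2 points, each in 10 of 10 mice (exact sign-flip permutation test, p = 0.00195, Benjamini-Hochberg adjusted over 6 contrasts 0.00195, the smallest value 10 mice allow). The mean of the plus strand minus that of the minus strand was 0.170 points in the standard mice, and -0.00849 points on rows with a value in all 5. Paired cytosines of 1 CpG on both strands correlated with r of 0.855 to 0.908 across 9405 to 16830 pairs in each mouse, given as a description because sites share libraries.

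Sites inside a gene but near another start were low. The 14619 gene-body sites within 1 kb of another listed protein-coding start averaged 6.37% ± 0.934, and the remaining 102441 averaged 51.6% ± 2.06. Between genes, 5275 sites near a listed non-coding start averaged 25.1% ± 1.66, against 63.6% ± 1.01 at the rest. Intergenic methylation was higher with distance from the nearest gene: 42.6% at 1 to 5 kb, 57.8% at 5 to 20 kb, 62.3% at 20 to 100 kb and 73.2% ± 0.695 beyond 100 kb.

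Single sites were mostly at the extremes. Of the kept CpG sites, 50.7% had a mean under 20%, 30.9% a mean over 80%, and 18.4% lay between. At gene starts 93.5% of sites were under 20%, and 61.9% were at exactly 0 in every mouse with a value. Sites between 20% and 80% also differed most between mice, with a median SD of 20.4 points against 2.63 for sites under 20% and 6.90 for sites over 80%.

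Methylation was lower where CpGs were denser, up to 20 in reach. Sites with 1 to 2 measured CpGs within 100 bases either side, themselves included, averaged 62.9% ± 1.17, those with 3 to 5 averaged 44.3% ± 1.88, those with 6 to 10 16.2% ± 1.83, and those with 11 to 20 4.32% ± 0.654. The 727 sites with over 20 stood higher again at 10.5% ± 2.45, but with CpGs counted within 500 bases either side such sites were the lowest, at 3.78% against 7.25% for 11 to 20. Of the 727, starts stood at 1.33% ± 0.327 (362 sites) and intergenic sites (225) at 22.9% ± 3.79. Among the sparsest sites, starts averaged 18.1% ± 1.13 and intergenic sites 70.7% ± 0.845. Only measured CpGs were counted, so these starts and intergenic sites may differ in CpG density in the genome. Sites with over 10 CpGs were 58.4 points lower than the sparsest in the standard mice (4.51% against 62.9%) and 59.0 points lower in the other 10.

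The CpG count read from the genome sequence, which does not depend on what was sequenced, gave the same order at autosomal starts. Of 108 starts with 0 to 2 CpGs in the 300 bases around them, 48 (44.4%) were unmethylated, meaning a mean under 20% in every mouse with a value. The share was 55.7% with 3 to 5 CpGs, 73.1% with 6 to 10, 91.2% with 11 to 20 and 94.9% of 4911 starts with 21 to 67. Mean levels over the same bins were 40.3% ± 2.16, 25.2%, 14.2%, 4.59% and 3.08%. The median count was 6 CpGs at methylated starts and 23 at unmethylated ones. It was 21 over the 9330 measured starts and 13 over all 21045 listed protein-coding starts. The TATA motif TATAAA was searched on both strands. It was in 23.4% of 128 methylated windows, 5.68% of 8094 unmethylated, 6.35% of 9330 measured and 12.7% of all listed ones. In the same order, the E2F-type motif TCCCGC was in 12.5%, 39.4%, 37.8% and 26.0%, and the E-box CACGTG in 7.81%, 10.3%, 10.1% and 7.91%. Unmethylated windows thus lay near the measured ones, of which they are the larger part. These are matches of letters, which also follow base composition.

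**Figure D2:**
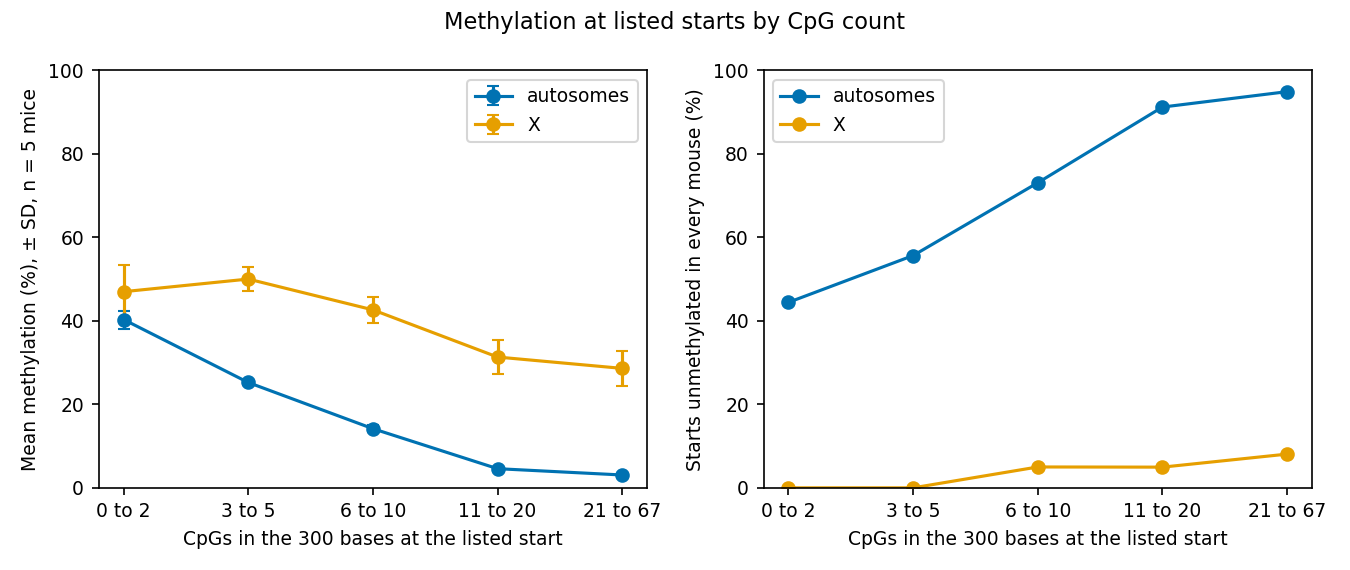
Left: mean methylation (%, ± SD over 5 mice) at listed starts by CpG count in the 300 bases at the start. Right: share of starts (%) unmethylated in every mouse; autosomal starts go from 44.4% to 94.9%, and X starts stay between 0.00% and 8.08%.

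Individual starts were classed when at least 3 sites lay within 1 kb, which 7275 of 17274 starts met. Unmethylated starts numbered 6289 (86.4%). Methylated starts, over 80% in every mouse with a value, numbered 115 (1.58%), and 16 (0.220%) lay between 35% and 65% in every mouse. The other 855 met none of these rules. The start nearest the lower limit from inside had a highest mouse of 19.9% and the nearest outside 20%. At the upper limit these were 80.7% and 79.9% in the lowest mouse. The classes were then read in the 10 mice of the other groups. Of the 6289 unmethylated starts 6033 (95.9%), and of the 115 methylated ones 82 (71.3%), met the same limit in every mouse with a value. Of the intermediate class 2 of 16 starts met its rule in every such mouse. The count of this class in the standard mice was 25, 25 and 28 when mouse 1, mouse 3 or mouse 5 was left out.

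**Figure D3:**
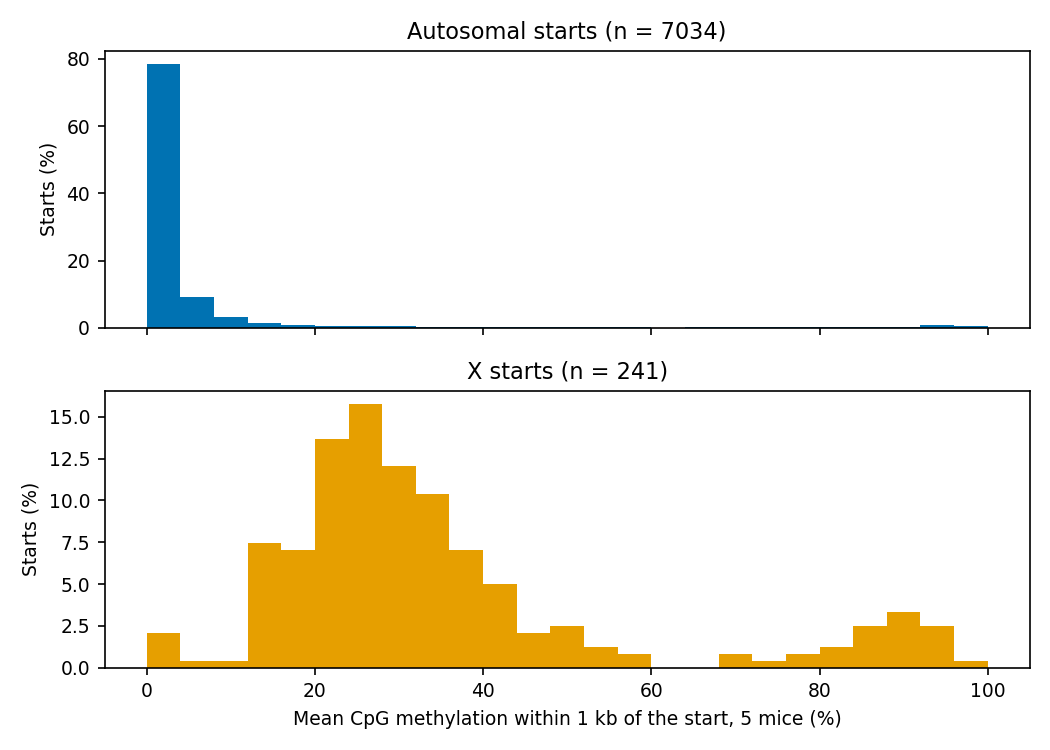
Share of gene starts (%) by mean CpG methylation within 1 kb (%, mean of 5 mice, bars 4 points wide) on autosomes (top, 7034 starts) and X (bottom, 241 starts). Autosomal starts pile up near 0 with a median of 1.73%, and X starts have a median of 29.3%.

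Unmethylated starts were described through those with the most sites and through the gene lists. Cry1, a circadian repressor, had 71 sites at 0.693% ± 0.600, with mouse means from 0.00% to 1.45%. Jag1, a Notch ligand, had 57 sites at 1.02% ± 0.879, and Neurog3 54 sites at 1.73% ± 0.587. All 16 measured housekeeping starts were unmethylated, with Gapdh at 1.65% ± 1.48 and B2m at 0 in all 5 mice, as were 23 of 23 developmental homeobox and related factors, among them Hoxd13 (2.10% ± 1.42), Nkx2-1 (5.49% ± 4.37) and Pax7 (5.81% ± 5.57). All 7 measured genes of the methylation machinery were unmethylated too, including the demethylase Tet1 (1.41% ± 1.71) and Gadd45b (0.200% ± 0.156). A start of this kind was the rule over all measured starts (86.4%), so these counts set no list apart.

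Most measured starts of cell type markers were unmethylated, as were most starts over all genes (86.4%). All 5 measured granule cell genes were unmethylated. Prox1, the transcription factor that defines granule neurons, read 0.919%, 0.980%, 0.960%, 1.58% and 0.891% in mice 1 to 5 over 24 sites. C1ql3, a synaptic organiser, averaged 2.96% ± 2.74. Of the inhibitory neuron genes Gad1, which makes GABA, averaged 2.55% ± 1.25, and the progenitor gene Eomes 3.54% ± 3.55. Both oligodendrocyte starts measured and both starts of the list for other tissues were unmethylated as well, and no microglial start had enough sites. The lists gave no check of the dissected tissue, since starts of genes used in other cells were unmethylated too.

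A few marker starts were not unmethylated. Syp, the synaptic vesicle protein synaptophysin and the only such start of 5 on the general neuronal list, was the highest. Syp lies on X, where 216 of 241 measured starts (89.6%) met none of the class rules and the median start was at 29.3%. Its start read 67.6%, 20.7%, 39.4%, 57.3% and 66.7% in mice 1 to 5 over 8 sites. Aldh1l1 is a folate enzyme used as an astrocyte marker. Its 13 sites read 49.3%, 35.8%, 35.3%, 30.3% and 45.5% in mice 1 to 5, and 14.6% to 36.5% in the other 10 mice. Single sites ranged from 10.1% to 79.4%. The other 4 measured astrocyte starts, Slc1a2, Slc1a3, Gja1 and Glul, were unmethylated (0.00% to 3.23%). Kdr, an endothelial receptor, averaged 19.04% ± 3.49 and reached 22.9% in mouse 5. Dlx1, a homeobox factor of inhibitory neurons, exceeded 20% in mouse 2 alone (20.99%, others 2.86% to 6.90%). All 6 measured progenitor starts were unmethylated, the highest being Hopx at 14.8% ± 3.52. In the other 10 mice Hopx read 12.0% to 41.2%, with a median of 29.5%.

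Starts of the germline list, genes whose known use is in sperm or egg precursors, were mostly methylated. Of its 8 measured genes 7 were methylated, beside 1.58% of all measured starts. Slc25a31 read 98.4%, 99.2%, 95.4%, 94.3% and 97.5% over 12 sites. Rpl10l, which stands in for an X-linked ribosomal protein in male germ cells, was at 99.3% ± 1.37 over 8 sites and Tuba3b at 97.1% ± 3.28 over 13. Brdt, a testis chromatin reader, was at 93.3% ± 4.12, the meiotic axis gene Hormad1 at 95.3% ± 3.71, and Tex101, a germ cell surface protein, at 88.7% ± 4.69. Asz1 was at 95.2% ± 7.41 over 3 sites in 4 mice. By the rule of the class, all 7 lay above 80% in every mouse with a value.

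Dazl, an RNA-binding protein of germ cells, was the remaining germline start and showed a border within 1 kb. Its 4 sites 567 to 618 bases upstream averaged 97.9% ± 0.979 over the 5 mice, and its 6 sites 754 to 822 bases downstream 2.10% ± 2.80 over 4 mice. Mouse 4 had no value at the downstream sites, so its mean of 97.2% came from 4 sites while the other mice, at 39.2% to 43.3%, had 10.

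Outside the list, the methylated starts with the most sites were those of D1Pas1 (20 sites, 94.4% ± 4.15), a testis DEAD-box helicase, and of the testis histones H2ac1 and H2bc1, which share the same 19 sites (94.99% ± 3.07). Rpl39l followed with 16 sites at 93.3% ± 3.24. Starts of somatic genes were there too, such as A1cf, an RNA-editing cofactor of the liver and gut (95.5% ± 2.37), Klra3, a natural killer cell receptor (86.8% ± 4.72), and Mgst2, a membrane glutathione transferase (95.5% ± 2.26). Nop10, a component of small nucleolar ribonucleoproteins needed in all cells, was at 92.9% ± 3.82, with all 13 of its sites upstream of the start.

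Zdbf2, an imprinted gene, had starts of both kinds. The 11 sites at its 5′ end read 98.4%, 97.2%, 93.1%, 87.0% and 96.0%, or 94.3% ± 4.55. At its second listed start, 15 sites averaged 5.94% ± 3.09 in the 4 mice with values. The 2 windows differed by far more than the spread between mice.

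Starts on the list of imprinted genes, which does not hold Zdbf2, were unmethylated or intermediate. Of 13 measured, 6 were unmethylated, none was methylated, and 7 had means of 24.4% to 51.7%. Mcts2 read 61.7%, 42.5%, 26.5%, 38.1% and 55.6% over 12 sites, Nnat, a neuronal membrane protein, 56.0%, 28.7%, 33.1%, 36.2% and 57.5% over 9, and Nap1l5, a histone chaperone relative, 21.6%, 50.2%, 39.6%, 7.38% and 41.4% over 17. The mice thus differed widely at each of these starts. Averaged over mice, which narrows their spread, single sites ran from 37.0% to 46.0% at Nnat, 23.2% to 46.4% at Nap1l5, 25.4% to 46.0% at the 26 sites of Zrsr1 (mean 36.8% ± 9.76), and 45.6% to 57.2% at Plagl1. They ran from 14.6% to 58.7% at Mcts2 and from 2.53% to 52.8% at Magel2. Within single mice the sites of Nap1l5 ran more widely, from 16.7% to 100% in mouse 2 and from 25.9% to 67.9% in mouse 5. Host genes in which 2 of these retrogenes and intronic genes lie were unmethylated at their own starts, Herc3 around Nap1l5 at 0.958% ± 1.31 and Blcap around Nnat at 1.13% ± 0.735. Magel2 and Mkrn3, neighbours in the Prader-Willi region, were at 29.9% ± 15.1 and 24.4% ± 8.53.

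**Figure D4:**
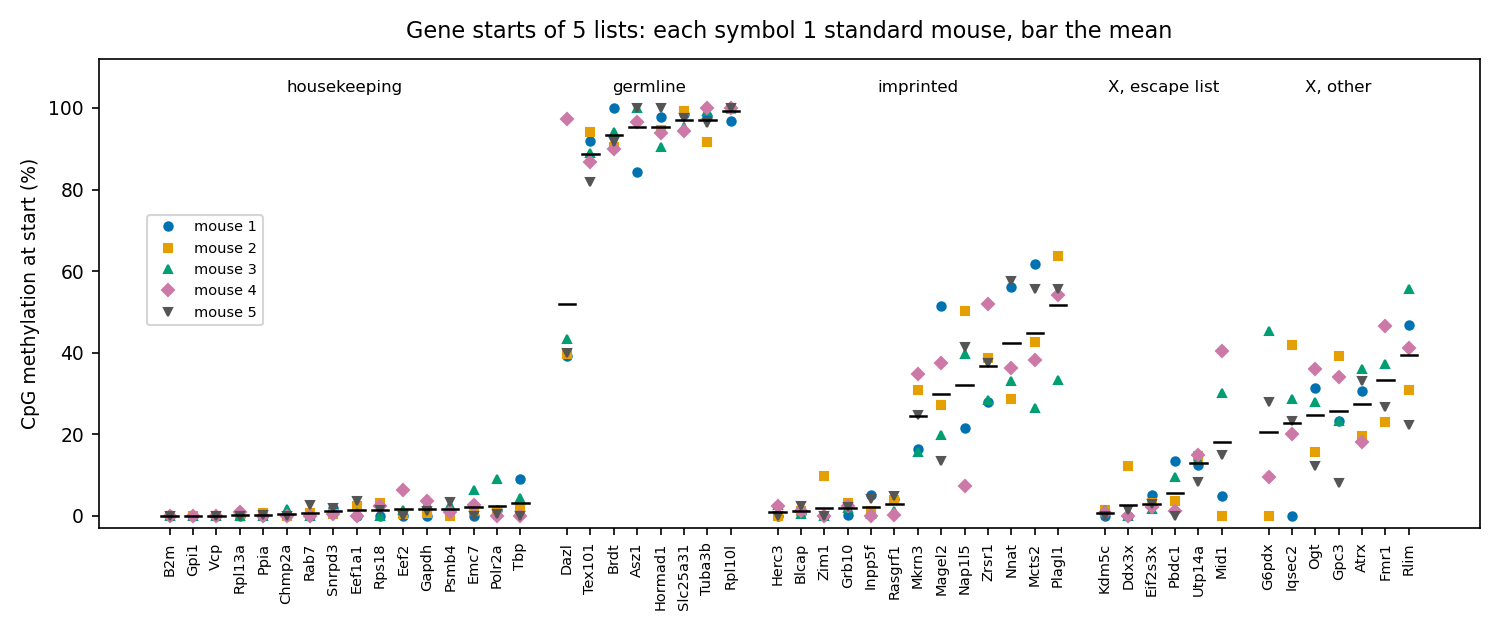
CpG methylation (%) at each measured start of 5 gene lists, 1 symbol per standard mouse and a bar at the mean. Housekeeping starts lie under 10%, 7 of 8 germline starts above 80%, and imprinted starts fall into a group near 0 and a group with means of 24.4% to 51.7%.

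An intermediate mean could also come from a border between low and high sites. Of 298 autosomal starts with a mean of 20% to 80%, 63 (21.1%) had at least 1 site under 20% and at least 1 over 80%, and 48 (16.1%) had every site between. On X these were 5 (2.86%) and 34 (19.4%) of 175 starts. Ahrr, the repressor of the aryl hydrocarbon receptor, averaged 53.8% ± 9.48 and was the autosomal start of the intermediate class with the most sites. Its 4 upstream sites were at 8.42% ± 4.57 and its 7 downstream sites at 83.3% ± 9.03. Heatr9 likewise ran from 2.22% to 95.1% between its 3 sites. Prss56 ran only from 46.3% to 54.1% between its 3 sites.

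Several of the starts with the widest range between mice differed in which sites had a value. Sumf1, a sulfatase-activating enzyme, read 100% in mouse 1 and 15.5% to 16.1% in the others. Mouse 1 had only the 2 sites 841 and 854 bases upstream, at 94.3% ± 5.39 over all 5 mice, while the 10 sites downstream averaged 0.526% ± 1.05 in the other 4. Rbm38, an RNA-binding protein, read 100% in mouse 1 from 1 of its 6 sites. Its range without that mouse was 13.02% to 18.8%. At that site the 5 mice read 78.1% to 100%. In others the mice differed at the same sites. Dcaf12l1, an X gene, read 82.9%, 0.00%, 18.5% and 25.5% in mice 2 to 5, each with all 6 sites. Orai3, a calcium channel subunit, read 72.7% in mouse 1 and 0.00% in the other 4 at its 1 site valued in all 5.

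The X chromosome stood apart. Sites on X averaged 66.2% ± 1.89 and autosomal sites 39.9% ± 2.55, where single autosomes ran from 31.9% ± 2.66 (chromosome 11) to 44.0% ± 2.50 (chromosome 3). The 2044 X sites at gene starts read 35.7%, 32.9%, 33.2%, 36.0% and 28.7% in mice 1 to 5, against 5.46%, 4.60%, 4.35%, 4.56% and 4.60% at autosomal starts. The difference was 28.6 points ± 2.78 in the standard mice and 31.8 points in the other 10 (36.5% against 4.72%, 10 of 10 mice, exact sign-flip permutation test p = 0.00195). X bodies averaged 64.9% ± 2.45 and X intergenic sites 80.1% ± 0.896, both above the autosomal 45.6% ± 2.47 and 61.1% ± 1.13.

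**Figure D5:**
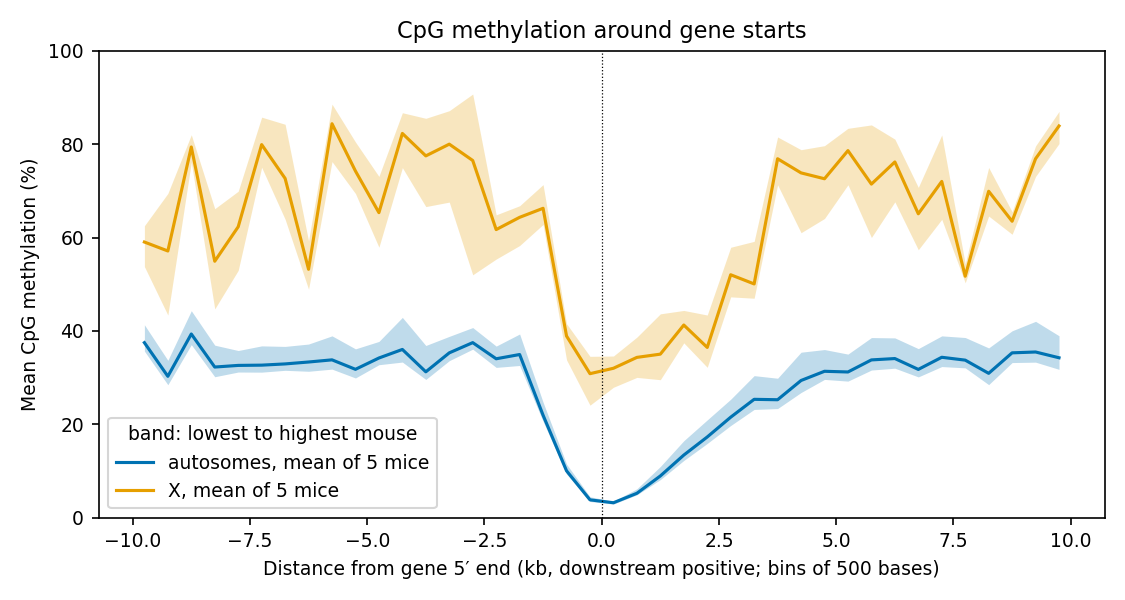
Mean CpG methylation (%) by distance from the gene 5′ end (kb, bins of 500 bases) on autosomes and X; lines are means of 5 standard mice and bands run from the lowest to the highest mouse. The first 500 bases downstream lie at 3.23% on autosomes and 32.02% on X.

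The low stretch lay at the start on both. In the 500 bases downstream of autosomal starts methylation was 3.23% ± 0.214, and 2 to 2.5 kb downstream it was 17.3% ± 2.10, while 2 to 2.5 kb upstream it was 34.1% ± 1.70. On X the first 500 bases averaged 32.02% ± 2.57 and the stretch 2 to 2.5 kb upstream 61.7% ± 3.72. Of 241 measured X starts, 161 (66.8%) had means of 20% to 50%, against 2.93% of 7034 autosomal starts. Only 10 X starts were unmethylated (4.15%), where 89.3% of autosomal starts were.

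Of those 10, 5 are on the list of genes known to escape X inactivation, of which 6 were measured. Of 7 measured genes on a list of other X genes none was unmethylated, a share that does not set them apart from all X starts. Means were 0.669% to 18.05% on the escape list and 20.6% to 39.4% on the other. Kdm5c read 0.00%, 1.32%, 1.39%, 0.636% and 0.00% over 25 sites. Eif2s3x, a translation initiation factor, averaged 2.89% ± 1.33, and Ddx3x, an RNA helicase, 2.72% ± 5.31, with 12.1% in mouse 2. Utp14a, a ribosome assembly factor, was at 12.8% ± 2.66 here but at 19.6% to 32.7% in the other 10 mice. Mid1 varied from 0.00% (mouse 2, from 2 of 4 sites) to 40.4% and exceeded 20% in 2 mice. Ogt read 31.4%, 15.6%, 27.9%, 36.0% and 12.1% over 22 sites, not all valued in every mouse. At the 14 sites valued in all 5 mice it read 28.6%, 16.1%, 29.5%, 16.7% and 9.56%. Atrx, a chromatin remodeller, averaged 27.4% ± 8.12, and Rlim, a ubiquitin ligase that promotes X inactivation, 39.4% ± 13.1. Single mice overlapped between the lists. Pbdc1, of the escape list, reached 13.5% in mouse 1. Of the other list, G6pdx read 0.00% in mouse 2, Gpc3 7.97% in mouse 5 and Iqsec2 0.00% in mouse 1, there from 2 of 8 sites.

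Of the X starts 12 were methylated. Trap1a, a tumour-rejection antigen gene, averaged 91.6% ± 7.18, Usp26, a testis ubiquitin protease, 96.0% ± 5.54, and Ezhip, an inhibitor of the histone methyltransferase EZH2, 94.7% ± 4.01. Nxt2, an RNA export factor, was at 87.1% ± 3.92 over 6 sites.

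Far fewer 3′ ends were unmethylated. Of 744 measured 3′ ends 231 (31.0%) were unmethylated and 141 (18.95%) methylated. The genes with unmethylated 3′ ends had a median length of 6811 bases, and those with methylated ones 20892 bases. The 3′ end with the most sites was that of Bad, a promoter of apoptosis, with 42 sites at 1.95% ± 0.619. Foxc1 (5.57% ± 2.08) and Foxb2 (2.96% ± 1.42), forkhead factors of development, and Gsx1 (4.32% ± 3.27), a homeobox factor, were also among the 10 with the most sites. Lyl1 and Nfix meet end to end and share 24 sites at 7.09% ± 4.02.

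Gene bodies spanned the whole scale. The lowest bodies with at least 20 sites were those of Fezf1 (0.488% ± 0.675), Cbll1 (0.606% ± 0.568), Sox17 (0.658% ± 0.558, 4 mice) and Socs3 (0.782% ± 0.525, 4 mice). The highest were Zfp619 (98.6% ± 1.39), F2r, the thrombin receptor (98.3% ± 0.905), and E2f7 (96.7% ± 2.19). The median body was at 48.6% for 2191 genes with unmethylated starts and 59.4% for 17 with methylated ones. Their quartiles overlapped, at 21.3% to 76.4% and 18.1% to 76.2%. Start and body gave r = -0.00465 across 2451 genes, a description over genes of the same libraries. Most of these starts were unmethylated, so r cannot tell whether bodies follow starts.

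Outside CpG, methylation was low and uneven. Mice 1 to 5 averaged 0.905%, 0.850%, 0.785%, 0.844% and 0.876%, and 79.4% of kept cytosines had a mean of 0. Starts averaged 0.544% ± 0.0228, 3′ ends 0.766% ± 0.0685, bodies 0.877% ± 0.0509 and intergenic sites 0.952% ± 0.0403, the same order as for CpG. The difference of body and start was 0.333 points in 5 of 5 standard mice and 0.320 points in 10 of 10 others (exact sign-flip permutation test, p = 0.00195). A share of these values can be cytosines that bisulfite failed to convert, which was not tested.

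Non-CpG levels differed by the next base. In the promoter windows, where the sequence was known, CA averaged 0.884% ± 0.0361, CC 0.361% ± 0.0237 and CT 0.372% ± 0.0317, and the ranges of CA did not overlap those of the other contexts. CAC was the highest triplet at 1.13% ± 0.0776. CA stood at 1.39% ± 0.266 in windows of methylated starts (327 cytosines) and 0.808% ± 0.0355 in unmethylated ones, with no overlap between mice. X starts averaged 1.15% ± 0.0697 over all non-CpG contexts and autosomal starts 0.526% ± 0.0229, while X bodies (0.648% ± 0.0402) were below autosomal ones (0.884% ± 0.0517). In the promoter windows X and autosomes lay closer, with CA at 1.08% ± 0.240 against 0.878% ± 0.0388. There CC was at 0.417% ± 0.0395 against 0.360% ± 0.0245, and CT at 0.398% ± 0.148 against 0.371% ± 0.0353. The ranges between mice overlapped in each of these contexts.

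A few cytosines carried the highest non-CpG bodies. Foxp2, a forkhead factor of neural circuits, had the highest mean among bodies with at least 100 cytosines and read 18.7%, 17.2%, 16.1%, 17.5% and 14.3% over 148. Without its 23 cytosines above 20% the mean was 1.36%. Tacc2, a centrosome protein, was at 10.8% ± 1.08 and at 0.931% without 28 of its 307 cytosines. Over all kept non-CpG rows 5666 had a mean above 20%.

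The standard mice were compared with the other groups on the 113832 CpG sites valued in all 15 mice, as a question of whether housing moved these broad levels. Over all such sites they averaged 46.9% ± 0.452, the enriched mice 47.1% ± 1.05 and the withdrawal mice 47.5% ± 0.482. None of 22 comparisons passed an adjusted p of 0.05 (exact permutation tests of 5 against 5 mice, Benjamini-Hochberg). The smallest p this exact permutation test allows is 0.00794, so 1 comparison alone could not pass after adjustment over 22. The smallest raw p was at X starts, where mouse 5 was at 30.6%, mice 1 to 4 at 36.5% to 39.0%, and the withdrawal mice at 40.4% ± 0.707 with no overlap between the groups (difference -4.16 points, exact permutation p = 0.00794, adjusted p = 0.116). Starts on all chromosomes differed by -0.312 points between the same groups (exact permutation test, adjusted p = 0.116), and 3 of the 22 had a raw p under 0.05.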

How the data were processed

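RRBS was done on micro-dissected dentate gyrus of 15 mice. Per the submitters' processing notes, tools included Trim Galore 0.4.0, cutadapt 1.8.1, Bismark 0.16.1 and methylKit 1.5.2 on build mm10. The authors deposited percent methylation per cytosine and strand, with no read counts, so no interval or coverage minimum could be set. The table runs through the chromosomes in 2 passes. In RefSeq promoter windows (GRCm38.p6) all 28665 kept rows of the first pass lay at CG and all 84722 of the second at a cytosine not followed by G.

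Sites were placed by priority: gene start, 3′ end, end of a gene of unlisted direction (1 kb flanks each), body, between genes. Direction was listed for 17274 of 21631 protein-coding genes. Means were taken over sites per mouse, then over mice, and sites lacking in a mouse drop out of its mean. Exact sign-flip and 5-against-5 permutation tests were two-sided, with Benjamini-Hochberg adjustment. Classes needed 3 sites. Genes named were list members and, for each class, those with the most sites, the widest ranges (at least 5 sites) or the extreme bodies (at least 20 CpG or 100 non-CpG sites). Members and lists were chosen with earlier results of these data known. Nothing in the labels says that equal mouse numbers share a litter or cage. Alternatives were flanks, row filters, class limits, the replicate block and left-out mice. Code was tested on simulated data. Python 3 with numpy and pandas was used.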

Additional observations from a re-analysis of the deposited data

Results flagged for a closer look

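A value was marked when 1 of the 5 standard mice lay far from the other 4, its gap to the nearest exceeding 0.71 of the whole range (Dixon's 95% limit). Chance marks about 1 in 20 such sets when they are independent and picked without regard to their values. Here 15 of 81 were marked, but some starts were named for their wide range between these same mice. Some averages also share sites, such as those of all gene starts and of autosomal starts. The count therefore cannot be compared with the chance rate, and the marks serve as a description.

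Mouse 1, which had the fewest sites with a value, was the high one in 5 averages: 6.41% at gene starts (others 5.10% to 5.40%), 5.46% at autosomal starts, 10.02% at gene ends of unlisted direction, 19.4% at sites with 6 to 10 neighbouring CpGs and 5.46% at those with 11 to 20. On rows with a value in all 5 mice the SD at gene starts was 0.202, beside 0.521 on all kept rows.

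Among single starts, 6 were marked where the mouse had values at far fewer sites than the rest: Dazl at 97.2% in mouse 4, Sumf1 at 100% and Rbm38 at 100% in mouse 1, Sccpdh at 100% in mouse 3 (from 1 of 7 sites) and Dvl2 at 100% in mouse 5 (from 1 of 12 sites). The remaining one was E130308A19Rik at 100% in mouse 1 (from 1 of 10 sites), with the other mice at 0.00% to 3.92%. Marked by small gaps were Prox1 at 1.58% in mouse 4 (from 18 of 24 sites), Rpl10l at 96.9% and A1cf at 99.7% in mouse 1. Ddx3x was at 12.1% in mouse 2, with the others at 0.00% to 1.47%.

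None of the 12 tests of whether a contrast between positions differed by housing group passed an adjusted p of 0.05 (exact permutation tests, Benjamini-Hochberg), and 1 had a raw p under 0.05. This was X against autosomal starts, 29.9 points in the standard and 33.9 in the withdrawal mice (exact permutation p = 0.00794, adjusted p = 0.0952). That raw p is the smallest the test allows, so 1 contrast alone could not pass after adjustment over 12.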

How the results depend on the processing

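Starts were the lowest and intergenic sites the highest under each alternative that gave both, and 3′ ends lay below bodies except with the 500-base flank (41.95% and 39.7%). On rows with a value in all 5 mice, values that moved by over 1 SD were gene start at 6.50%, gene 3′ end at 44.0%, gene end of unlisted direction at 9.83% and gene body at 49.1%, 3 to 5 CpGs at 46.7%, 6 to 10 CpGs at 19.7%, 11 to 20 CpGs at 5.87% and over 20 CpGs at 15.5%, autosomes at 43.9%, chromosome X at 68.2%, chromosome 11 at 36.3% and chromosome 3 at 47.3%, and non-CpG gene start at 0.568% and between genes at 0.993%. A 500-base flank gave gene start at 4.52%, gene end of unlisted direction at 6.86%, gene body at 39.7% and between genes at 60.1%, and a 2 kb flank gene start at 7.40%, gene 3′ end at 43.9%, gene end of unlisted direction at 11.3%, gene body at 51.3% and between genes at 63.1%. Averaging over genes gave gene start at 9.97%, gene 3′ end at 54.9% and gene body at 55.9%. Using every listed start, chosen after seeing the data, put gene body at 50.8%. Counting CpGs within 500 bases gave 1 to 2 CpGs at 68.6%, 3 to 5 CpGs at 56.2%, 6 to 10 CpGs at 28.0%, 11 to 20 CpGs at 7.25% and over 20 CpGs at 3.78%. Leaving out cytosines with a mean over 20% gave non-CpG gene start at 0.510%, gene body at 0.768% and between genes at 0.780%. Class counts became 40 methylated starts, 150 unmethylated 3′ ends and 63 methylated 3′ ends with limits of 10% and 90%, 47 methylated starts, 4 intermediate starts and 55 methylated 3′ ends with 5 sites, 61 methylated starts, 9 intermediate starts, 132 unmethylated 3′ ends and 75 methylated 3′ ends with the 500-base flank, 4182 unmethylated starts, 142 unmethylated 3′ ends and 86 methylated 3′ ends on complete rows, and 179 methylated starts, 165 intermediate starts and 223 methylated 3′ ends with limits on the mean. Leaving out 1 mouse gave 22 to 28 intermediate starts. The strand difference turned to -0.00849 points on complete rows in the standard mice and to -0.0659 in the other 10. Against the other groups, no alternative gave an adjusted p under 0.05 (0.0582 to 1.00 over 264). These include the replicate block, where such a value was not possible. With every site valued in a mouse the standard minus other difference changed sign at enriched, all (0.0157), enriched, gene body (0.127), enriched, autosomal gene start (0.00930), withdrawal, gene 3′ end (0.377), withdrawal, dense (0.0169). Leaving out 1 mouse changed it at enriched, all (-0.452 to 0.192), enriched, gene 3′ end (-0.0154 to 0.444), enriched, gene body (-0.495 to 0.300), enriched, between genes (-0.518 to 0.212), enriched, autosomal gene start (-0.122 to 0.0554), enriched, sparse (-0.716 to 0.278). With the replicate block, which pairs mice of equal number, adjusted p-values were 0.275 to 0.813, no call changed, and the difference over all CpG sites was -0.156 points against the enriched and -0.570 against the withdrawal mice. Deviations of equal-numbered mice from their group means correlated at -0.0179 to 0.0192 across sites. This cannot tell whether equal numbers share a litter or cage, which need not leave such a correlation.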

Other observations

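The kept rows included 98 CpG rows on the Y chromosome in these female mice, which averaged 81.6% ± 8.05 (SD, n = 5), with 68.8% in mouse 2 and 80.3% to 88.5% in the others. The 300 non-CpG rows there averaged 0.586% ± 0.161. Where these reads came from was not tested.

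Mitochondrial cytosines were low, and CpG and other contexts stood together within each mouse. The 43 CpG rows read 0.858%, 0.516%, 1.75%, 6.64% and 5.52% in mice 1 to 5, and the 352 non-CpG rows 0.926%, 0.626%, 2.53%, 7.81% and 4.76%. Mice 4 and 5 were high in both. Their nuclear non-CpG means (0.844% and 0.876%) lay within the range of the other mice.

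Starts of non-coding genes were more often methylated than those of protein-coding genes as counted over listed starts: 113 of 2044 (5.53%) against 128 of 9330 (1.37%). Unmethylated were 69.5% and 86.8%. This is a count without a test. At Meg3, a maternally expressed non-coding gene, 7 sites at a listed start averaged 52.8% ± 13.01. At another, 3 sites read 92.5%, 0.00%, 0.00% and 63.6% in mice 1, 2, 4 and 5.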
